A study of Mus musculus with 9 samples.

Results

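The 39 genes described here encode the subunits, regulators and survival targets of NF-kB, the transcription factor family that answers tumour necrosis factor (TNF), interleukin-1 and microbial signals. They were taken by gene name from a table of 54449 mouse genes measured by RNA sequencing. Each of the 39 names matched 1 entry, and all 39 had a mean of at least 5 normalized counts over the 9 libraries, the minimum for testing, which 13642 genes reached. By role the set holds 5 subunits, 6 members of the IkB family, 3 genes of TNF and its receptors, 8 adaptors and ligases of the receptor complexes, 5 kinases, 6 brakes and 6 other targets.

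Per the labels, the libraries came from eosinophils sorted from the lungs of C57BL/6 mice. In every group markers of other cell types stood far above several defining eosinophil markers, as given with the depths. Siglec-F high cells (named iEOS in the sample titles) and Siglec-F int cells (named rEOS) were both taken from mice injected through the tail vein with PyMT tumour cells, a mouse mammary tumour model, which seed the lung. The libraries labelled naive came, per the labels, from mice injected with 200 µl of saline and no tumour cells, and their markers go against the labelled cell type, as given with the depths. Each group has 3 libraries, each library pools 3 to 4 mice, and the submitters give a sort purity above 98% and an RNA integrity number above 6.3. Siglec-F, a lectin receptor of mouse eosinophils, defined the gates, so its own level is not a result. The RNA of its gene Siglecf was low in every library, and the groups overlapped. It had 3.58 to 17.55 normalized counts in Siglec-F high, 6.98 to 20.2 in Siglec-F int and 4.18 to 31.3 in naive libraries. Siglecf is among the eosinophil markers summed below. Age, sex and the time after injection are not given in the sources used here.

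In resting cells NF-kB dimers are held in the cytoplasm by IkB proteins. A kinase complex built from Chuk, Ikbkb and Ikbkg marks IkB for destruction, the dimers enter the nucleus, and among the genes they switch on are their own inhibitors, Nfkbia and Tnfaip3, so the pathway carries built-in negative feedback. A second, slower branch runs through Map3k14 and Chuk and processes the Nfkb2 product. In eosinophils and other granulocytes NF-kB targets of the Bcl2 family are known for prolonging survival.

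NF-kB binds the kappa-B site, and the promoters of 5 genes are shown to set the same kind of site beside different measurements. Tnfaip3, Nfkbia and Rel rose in both groups from tumour-injected mice, Nfkb2 was not called and was low in all Siglec-F high libraries, and Tnip1 fell in Siglec-F high cells. Each sequence is the stretch of 250 bases just before the gene's start in RefSeq, build GRCm38.p6, written 5′ to 3′ on the gene's own strand. Capitals mark matches to the consensus kappa-B site in a loose form, searched on both strands, with overlapping matches run together. They lie at chr10:19015411-19015660 on the minus strand (Tnfaip3), chr12:55492648-55492897 on the minus strand (Nfkbia), chr11:23770970-23771219 on the minus strand (Rel), chr19:46304487-46304736 on the plus strand (Nfkb2, the first of its starts) and chr11:54962941-54963190 on the minus strand (Tnip1).
Tnfaip3: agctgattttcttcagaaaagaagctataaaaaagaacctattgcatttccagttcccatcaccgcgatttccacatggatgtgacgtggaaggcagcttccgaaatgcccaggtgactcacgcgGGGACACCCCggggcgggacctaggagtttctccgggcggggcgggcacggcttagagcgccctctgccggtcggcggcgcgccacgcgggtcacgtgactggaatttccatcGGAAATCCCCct
Nfkbia: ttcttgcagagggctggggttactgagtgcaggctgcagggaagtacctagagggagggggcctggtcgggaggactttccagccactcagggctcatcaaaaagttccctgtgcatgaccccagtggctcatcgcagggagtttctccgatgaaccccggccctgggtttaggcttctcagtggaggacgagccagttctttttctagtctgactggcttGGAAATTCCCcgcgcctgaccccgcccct
Rel: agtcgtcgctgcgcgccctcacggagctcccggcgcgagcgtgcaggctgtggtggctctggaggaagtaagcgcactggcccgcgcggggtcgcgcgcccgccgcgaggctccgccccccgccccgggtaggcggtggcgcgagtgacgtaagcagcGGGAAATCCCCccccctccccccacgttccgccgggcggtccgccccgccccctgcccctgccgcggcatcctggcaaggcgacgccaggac
Nfkb2: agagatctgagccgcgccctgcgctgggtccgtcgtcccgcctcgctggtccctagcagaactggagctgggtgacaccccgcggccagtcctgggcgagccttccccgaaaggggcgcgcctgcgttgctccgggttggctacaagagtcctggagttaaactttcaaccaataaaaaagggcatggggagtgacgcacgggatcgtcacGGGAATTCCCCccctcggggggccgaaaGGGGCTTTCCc
Tnip1: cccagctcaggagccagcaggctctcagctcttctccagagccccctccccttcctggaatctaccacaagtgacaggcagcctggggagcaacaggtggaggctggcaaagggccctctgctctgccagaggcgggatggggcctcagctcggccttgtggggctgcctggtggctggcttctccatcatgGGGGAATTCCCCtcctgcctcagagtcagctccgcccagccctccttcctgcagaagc
The match before Nfkbia begins at position -29 from the start, and those before Tnfaip3 at -125 and -12. The capitals before Rel hold 2 overlapping matches and those before Tnip1 hold 3, while Nfkb2 has an overlapping pair at -39 and -38 and another match at -11.

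RefSeq promoters of 300 bases, from 250 before to 50 after the start, were at hand for 33 of the 39 genes. A match stood in 14 of the 33 (42.4%), against 1274 of 10253 tested genes (12.4%) and 2581 of 27025 genes in all (9.55%). It was found in 12 of the 18 that are textbook NF-kB targets (66.7%) and in 2 of the other 15 (13.3%). Of the 10 promoters of genes that rose in Siglec-F high cells 6 had a match, beside 7 of 21 among genes that were not called and 1 of 2 among those that fell. A match describes the letters in this window only.

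Depth as recovered reads was 4941900 to 7171066 per library in Siglec-F high, 7517513 to 12495639 in Siglec-F int and 2205949 to 5529406 in naive, with 15002 to 20052 genes above 0. Several defining eosinophil markers were at or near 0 in most libraries. Other genes on the eosinophil list were higher, and whether their reads came from eosinophils was not tested. The eotaxin receptor Ccr3 had 0 to 24.1 normalized counts in Siglec-F high libraries, 0 to 7.91 in Siglec-F int libraries and 0 in every naive library, and the peroxidase Epx was at 0 in 6 of the 9 libraries. The granule protein gene Prg2 had 6.58, 0.6 and 380 in Siglec-F high, 3.76, 8 and 106 in Siglec-F int, and 0, 0 and 15.0 in naive libraries, so library 3 was highest in each group. The granule ribonuclease gene Ear2 ran from 117 to 568 over the 9 libraries. The sum of 10 eosinophil markers was 517 to 1141 in Siglec-F high, 190 to 419 in Siglec-F int and 268 to 742 in naive libraries. Most of each sum came from Ear2 and the related Ear1 (19.8 to 214 over the 9 libraries) and Ear6 (10.9 to 194). Of the other markers Il5ra had 0 to 6.01 and Cebpe 0 to 1.79. The sum of 11 pigment cell genes was 212 to 1100 in Siglec-F high, 371 to 714 in Siglec-F int and 65254 to 73578 in naive libraries, and all 11 fell in both groups relative to naive. These pigment cell levels, with Ccr3 at 0, go against the eosinophil label of the naive libraries, so each fold change below is against the libraries labelled naive. In Siglec-F high and Siglec-F int libraries the macrophage gene C1qb had 897 to 27139 and the collagen gene Col3a1 5427 to 20431. With Ccr3 low, these levels go against a purely eosinophil content there as well. Which cells the counts of those libraries come from was not tested. Over all genes tested, 14.7% rose in Siglec-F high and 12% in Siglec-F int. Monocyte and macrophage markers rose in 5 of 11 genes in Siglec-F high and 6 of 11 in Siglec-F int cells. Fibroblast and smooth muscle markers rose in 7 and 5 of 10. Immediate early genes, which respond to tissue handling, rose in 10 and 11 of 15. Summed levels in Siglec-F high, Siglec-F int and naive libraries were 13965 to 22159, 18566 to 75020 and 7446 to 10847 for monocytes and macrophages. For fibroblasts and smooth muscle they were 25886 to 38398, 10955 to 27021 and 7026 to 8633. For immediate early genes they were 38280 to 54116, 31635 to 41427 and 13912 to 16555. Each of the other 10 marker lists, from eosinophil and neutrophil to epithelial, had at most 1 gene called in either group. Not all their genes were tested, with 6 of 10 for eosinophils and 1 of 7 for mast cells and basophils. Some of these lists were high in every group. Over the 9 libraries the sums were 2879 to 7906 for epithelial, 2635 to 6842 for alveolar macrophage and 959 to 3691 for neutrophil genes. The part of any of these cell types in the results was not tested. In bulk RNA fewer cells of a type and less RNA per cell cannot be told apart. Tumour injection and these marker sums separate the same libraries from naive, so their parts in a difference from naive cannot be told apart either.

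Relative to naive, 13 of the 39 genes rose and 2 fell in Siglec-F high cells, with 24 not called. Calls rest on limma's moderated test of log2(value + 1), with Benjamini-Hochberg adjusted p under 0.05 over all genes tested, and fold changes are differences on that scale with their SE. In Siglec-F int cells 13 rose, none fell and 26 were not called. Over all 13642 genes tested, 31.3% were called in Siglec-F high (14.7% higher and 16.6% lower) and 22.3% in Siglec-F int (12% higher and 10.3% lower). With libraries scaled to equal totals the split over all genes was 2143 higher and 1609 lower in Siglec-F high, where it was 1999 and 2267 as deposited, and 2019 and 897 in Siglec-F int, where it was 1634 and 1402. Of the 39 genes 13 were then higher and 0 lower in Siglec-F high and 19 higher and 0 lower in Siglec-F int. With edgeR on the recovered reads 13 were higher and 0 lower in Siglec-F high, against 15.9% and 10.1% of all genes (26% in all), and 19 higher and 0 lower in Siglec-F int, against 13.5% and 7.61% (21.1% in all). As deposited, the median log2 fold change of the 39 was 0.65 in Siglec-F high and 1.16 in Siglec-F int, beside -0.11 and -0.02 over all genes. All libraries of Siglec-F high lay above all naive libraries for 13 of the 39 genes and below for 4, against 20.2% and 26.3% of all genes. For Siglec-F int it was 25 above and 2 below, against 23.3% and 27.6%. Both comparisons use the same 3 naive libraries. P-values measure the spread between libraries in 1 fit of all groups, in which pools of mice and library preparation cannot be told apart. Of the 15 calls in Siglec-F high, 4 held in each of 23 refits with other settings or with libraries left out, those of Tnfaip3, Nfkbia, Nfkbiz and Ripk2. Of the 13 in Siglec-F int 6 did, those of Tnfaip3, Nfkbia, Nfkbiz, Nfkb1, Tnfrsf1b and Ier3. The number of the 39 called in Siglec-F high was 8 without naive library 1 (20.3% of all genes), 6 without naive library 3 (21.5%), 8 without Siglec-F high library 3 (24.5%) and 9 without Siglec-F int library 3 (24.4%). In Siglec-F int it was 8 without naive library 1 (14.2% of all genes), 7 without naive library 3 (15.1%), 22 without Siglec-F high library 1 (37.9%), 8 without Siglec-F int library 2 (15.6%) and 6 without Siglec-F int library 3 (10.3%).

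**Figure D1:**
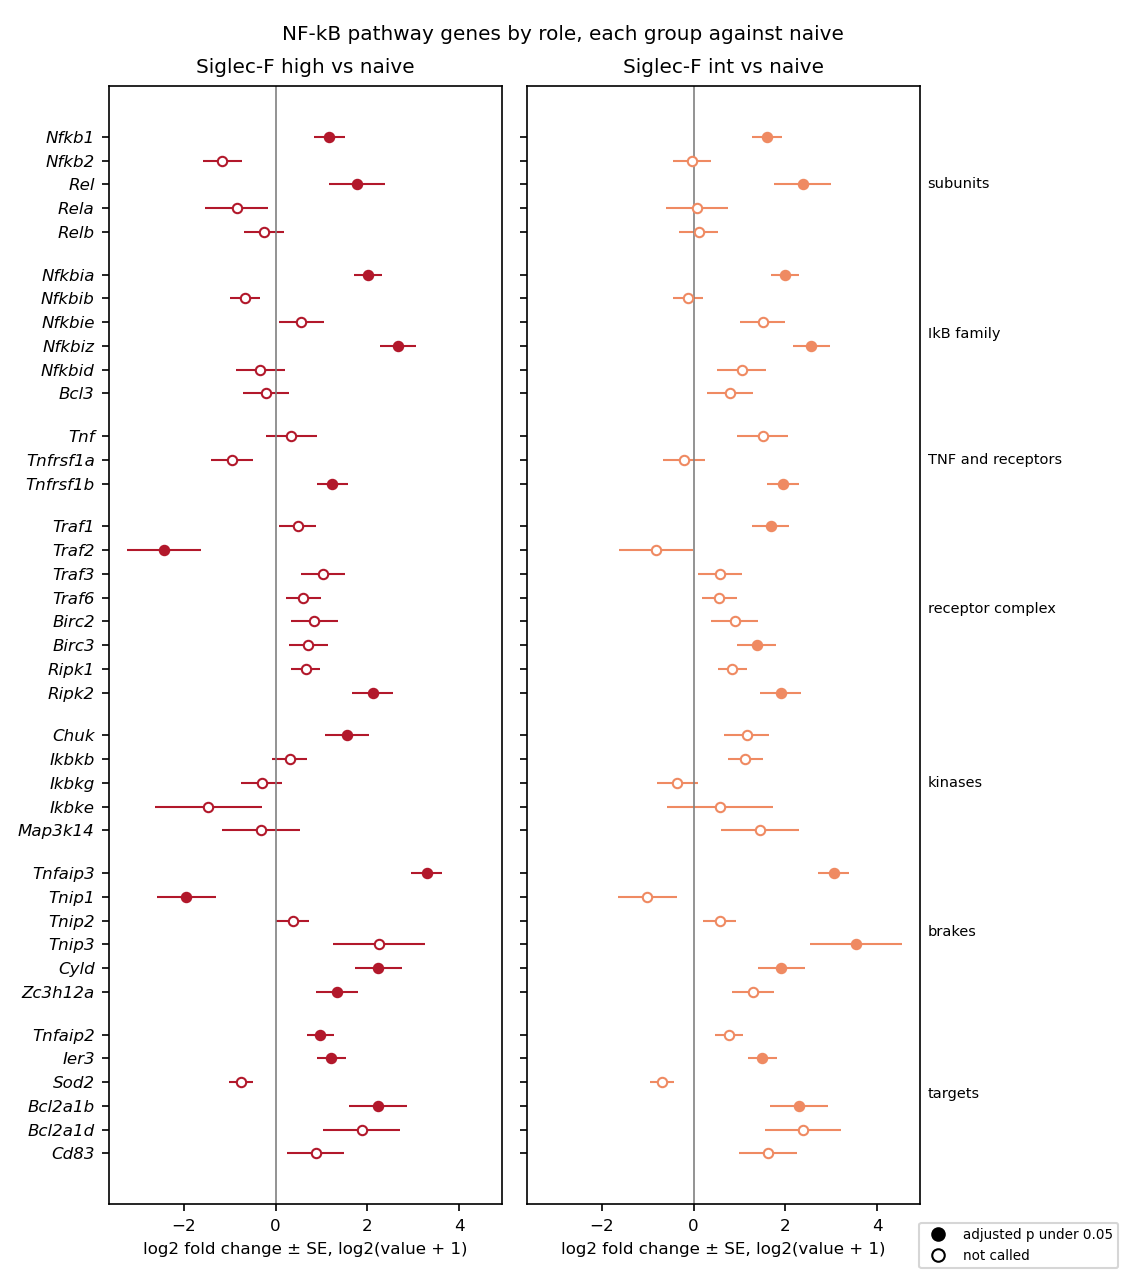
Log2 fold change against naive for each of the 39 genes on the log2(value + 1) scale, Siglec-F high on the left and Siglec-F int on the right, ordered by role. Points are limma estimates, bars are ± 1 SE and filled points have an adjusted p under 0.05. Tnfaip3, Nfkbia and Nfkbiz lie between 1.996 and 3.29 on both sides, while Traf2 and Tnip1 are the filled points below 0 on the left.

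Among the 5 subunits, Nfkb1 and Rel rose in both groups and Nfkb2, Rela and Relb were not called in either. Nfkb1, whose product is processed to a small DNA-binding subunit, had 547, 316 and 405 normalized counts in Siglec-F high, 511, 592 and 571 in Siglec-F int, and 229, 211 and 124 in naive libraries. All 6 libraries from tumour-injected mice lay above all naive libraries. The log2 fold change was 1.17 ± 0.33 (SE, adjusted p = 0.0227) in Siglec-F high and 1.61 ± 0.33 (adjusted p = 0.00733) in Siglec-F int. The Siglec-F high call ended without naive library 3 or Siglec-F high library 3 (0.90 and 1.19). Subtracting the trend of each library with transcript GC content and length also ended it (0.45, adjusted p = 0.306). Rel, the c-Rel subunit prominent in blood cells, had 203, 68.6 and 112 in Siglec-F high, 146, 228 and 168 in Siglec-F int, and 16.1, 88.6 and 25.1 in naive libraries. Naive library 2 lay above Siglec-F high library 2, and all Siglec-F int libraries lay above naive. The change was 1.78 ± 0.62 (adjusted p = 0.0499) in Siglec-F high and 2.39 ± 0.62 (adjusted p = 0.0206) in Siglec-F int. Leaving out any of 7 of the 9 libraries, all but naive library 2 and Siglec-F high library 2, ended the call in Siglec-F high, at 1.28 to 1.80. In Siglec-F int leaving out naive library 1 or 3 or any Siglec-F int library did so, at 1.88 to 2.52. Without the GC and length trend neither call held (0.25 and 1.12).

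Nfkb2, the precursor on which the slower branch acts, had 147, 554 and 409 normalized counts in Siglec-F high, 705, 737 and 679 in Siglec-F int, and 684, 808 and 684 in naive libraries. Every Siglec-F high library lay below every other library, with library 1 lowest. Relative to naive it was at -1.16 ± 0.42 (adjusted p = 0.0578) in Siglec-F high and -0.03 ± 0.42 (adjusted p = 0.965) in Siglec-F int. Its Siglec-F high value was -0.60 without Siglec-F high library 1, -1.55 without library 2 of that group, when it was called lower (adjusted p = 0.016), and 0.04 without the GC and length trend. Rela, the main activating subunit, had 9.87, 78.2 and 68.2 in Siglec-F high, 68.7, 80.1 and 70.9 in Siglec-F int, and 78.0, 52.1 and 81.9 in naive libraries. Siglec-F high library 1, with 9 reads, stood alone, and the others overlapped. Its change was -0.85 ± 0.68 (adjusted p = 0.351) in Siglec-F high, 0.07 without that library, and 0.07 ± 0.68 (adjusted p = 0.949) in Siglec-F int. Relb, partner of the Nfkb2 product, had 68.0, 43.0 and 36.7 in Siglec-F high, 67.6, 61.1 and 56.3 in Siglec-F int, and 47.0, 80.8 and 48.5 in naive libraries. The groups overlapped, and the changes were -0.26 ± 0.43 (adjusted p = 0.669) in Siglec-F high and 0.11 ± 0.43 (adjusted p = 0.877) in Siglec-F int.

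In the IkB family Nfkbia and Nfkbiz rose in both groups and the other 4 were not called. Nfkbia, the IkB that NF-kB resynthesizes after each round of activation, had 12283, 10394 and 9497 normalized counts in Siglec-F high, 9417, 11456 and 10710.5 in Siglec-F int, and 2477, 3824 and 1919 in naive libraries. The lowest library from tumour-injected mice lay above the highest naive library. The limma estimate was 2.02 ± 0.30 (adjusted p = 0.00137) in Siglec-F high and 1.996 ± 0.30 (adjusted p = 0.00184) in Siglec-F int. Nfkbiz, a nuclear IkB that helps switch on secondary response genes, had 1319, 857 and 936 in Siglec-F high, 823, 1022 and 1021 in Siglec-F int, and 83.7, 268 and 180 in naive libraries. Here too all 6 lay above all naive libraries, at 2.67 ± 0.40 (adjusted p = 0.00142) in Siglec-F high and 2.57 ± 0.40 (adjusted p = 0.00214) in Siglec-F int. Nfkbie, another cytoplasmic IkB, had 52.6 to 133 in Siglec-F high, 94.5 to 304 in Siglec-F int and 52.6 to 62.5 in naive libraries. Its Siglec-F int libraries all lay above naive, at 1.51 (adjusted p = 0.0518). The nuclear IkB genes Nfkbid and Bcl3 were at -0.34 and -0.20 in Siglec-F high and at 1.05 and 0.79 in Siglec-F int. Nfkbib, a further cytoplasmic IkB, was at -0.67 and -0.12. It overlaps Sirt2 on the opposite strand, whose mean was 214 normalized counts, and whether strand was used in counting is not given in the sources used here, so Nfkbib is uncertain.

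**Figure D2:**
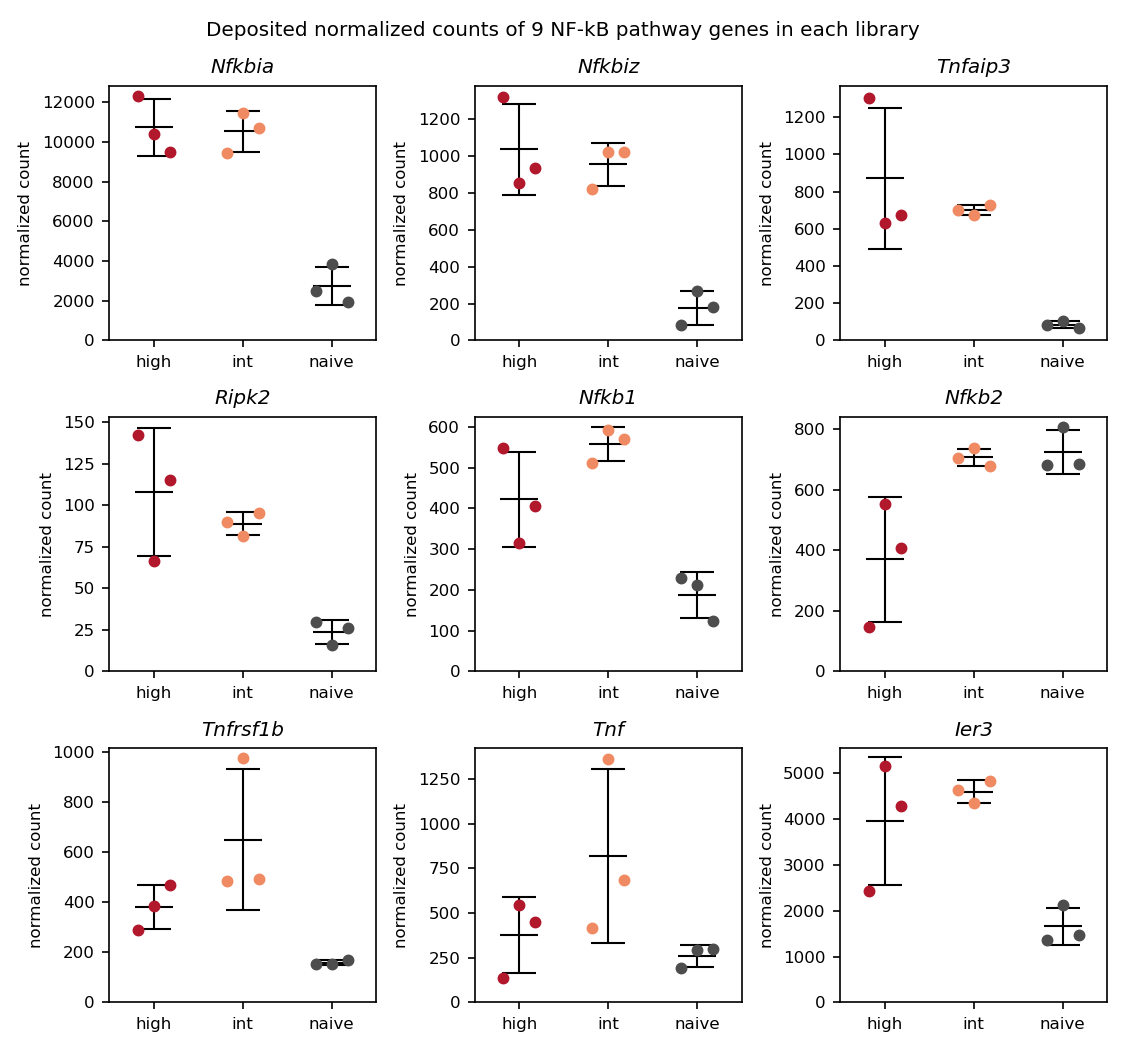
Deposited normalized counts of 9 genes in each library, Siglec-F high, Siglec-F int and naive from left to right, with the group mean and SD (n = 3 pools each). For Nfkbia, Nfkbiz, Tnfaip3, Ripk2, Nfkb1, Tnfrsf1b and Ier3 the naive libraries lie below all others, whereas for Nfkb2 the Siglec-F high libraries do.

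Of TNF and its receptors, only Tnfrsf1b was called, and it rose in both groups. Tnfrsf1b, the TNF receptor restricted largely to blood and endothelial cells, had 291, 387 and 467 normalized counts in Siglec-F high, 486, 975 and 492 in Siglec-F int, and 153, 154 and 170 in naive libraries. The 3 groups did not overlap, with Siglec-F int highest and naive lowest. Against naive the estimate was 1.24 ± 0.34 (adjusted p = 0.0214) in Siglec-F high and 1.95 ± 0.34 (adjusted p = 0.0036) in Siglec-F int. In Siglec-F high the call ended without naive library 1 or 2 or Siglec-F high library 3, at 1.08 to 1.21. Tnf, the ligand itself and an early NF-kB target, had 136, 544 and 451 in Siglec-F high, 415, 1363 and 685 in Siglec-F int, and 192, 292 and 297 in naive libraries. Siglec-F high library 1 was the lowest of the 9, and all Siglec-F int libraries lay above naive, library 2 by most. The change was 0.34 ± 0.56 (adjusted p = 0.66) in Siglec-F high and 1.51 ± 0.56 (adjusted p = 0.0745) in Siglec-F int. With library 1 of Siglec-F high and library 2 of Siglec-F int left out, the Siglec-F high value was 0.96 (adjusted p = 0.043), and Tnf in Siglec-F int passed the threshold in 9 of the other settings, at 1.06 to 2.05 over all of them. Tnfrsf1a, the receptor found on most cells, was at -0.95 in Siglec-F high and -0.21 in Siglec-F int, and neither was called.

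Of the 8 genes of the receptor complexes, Ripk2 rose in both groups, Traf1 and Birc3 rose in Siglec-F int, Traf2 fell in Siglec-F high, and Traf3, Traf6, Birc2 and Ripk1 were not called. Ripk2, the kinase that relays signals of the NOD receptors, had 143, 66.2 and 115 normalized counts in Siglec-F high, 90.2, 81.7 and 95.2 in Siglec-F int, and 29.8, 15.6 and 25.9 in naive libraries. All libraries from tumour-injected mice lay above naive. Its log2 fold change was 2.12 ± 0.45 (adjusted p = 0.0071) in Siglec-F high and 1.91 ± 0.45 (adjusted p = 0.0131) in Siglec-F int, where the call ended without library 1 or 3 of that group (1.90 and 1.86). Traf1, an adaptor that NF-kB itself induces, had 60.3, 90.1 and 60.6 in Siglec-F high, 134, 203 and 148 in Siglec-F int, and 43.6, 70.3 and 38.4 in naive libraries. Siglec-F int lay above both other groups, and Siglec-F high overlapped naive. The change was 0.49 ± 0.40 (adjusted p = 0.362) in Siglec-F high and 1.68 ± 0.40 (adjusted p = 0.0142) in Siglec-F int, a call lost without naive library 3 or Siglec-F int library 2 or 3 (1.51 to 1.73). Without the GC and length trend Traf1 was called in Siglec-F high as well (1.24, adjusted p = 0.0367).

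Birc3, a ubiquitin ligase induced by NF-kB that protects cells from TNF-driven death, had 251, 344 and 409 normalized counts in Siglec-F high, 403, 689 and 504 in Siglec-F int, and 144.5, 383 and 144 in naive libraries. Siglec-F int libraries all lay above naive, and naive library 2 lay within the Siglec-F high range. The log2 fold change was 0.71 ± 0.42 (adjusted p = 0.207) in Siglec-F high and 1.37 ± 0.42 (adjusted p = 0.0393) in Siglec-F int. Leaving out naive library 1 or 3, Siglec-F high library 3 or any Siglec-F int library ended that call, at 1.14 to 1.56, and without naive library 2 Birc3 was called in Siglec-F high (1.18, adjusted p = 0.0406). Traf2, the adaptor that brings those ligases to the TNF receptors, had 1.1, 19.7 and 15.4 in Siglec-F high, 25.8, 30.8 and 23.1 in Siglec-F int, and 37.9, 54.7 and 50.1 in naive libraries. Siglec-F high lay below Siglec-F int and Siglec-F int below naive, and Siglec-F high library 1 held 1 read. The change was -2.43 ± 0.81 (adjusted p = 0.0428) in Siglec-F high and -0.81 ± 0.81 (adjusted p = 0.498) in Siglec-F int. Leaving out any naive or any Siglec-F int library ended the Siglec-F high call, at -2.58 to -2.32, and so did TMM scaling and edgeR on the recovered reads. Without Siglec-F high library 1 the value was -1.38. Traf3, which with Traf2 keeps Map3k14 low, Traf6, the adaptor of the interleukin-1 and Toll-like receptors, Birc2, a ligase related to Birc3, and Ripk1 were at 0.61 to 1.04 in Siglec-F high and at 0.56 to 0.90 in Siglec-F int. Ripk1, the kinase at the TNF receptor, overlaps Serpinb6a (mean 1686 normalized counts) on the opposite strand and is uncertain.

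Of the 5 kinases only Chuk was called, and only in Siglec-F high. Chuk, the IkB kinase shared by both branches, had 396, 133 and 183 normalized counts in Siglec-F high, 152, 148 and 188 in Siglec-F int, and 40.1, 112 and 81.9 in naive libraries. All 6 lay above naive, and Siglec-F high library 1 stood far above the rest. Relative to naive it was at 1.56 ± 0.49 (adjusted p = 0.0343) in Siglec-F high and 1.16 ± 0.49 (adjusted p = 0.111) in Siglec-F int. The call ended without naive library 1 or 3, Siglec-F high library 1 or 3 or Siglec-F int library 1 or 3, at 1.11 to 1.66, and without the GC and length trend (0.47, adjusted p = 0.393). Ikbkb, the catalytic kinase of the main branch, had 102 to 235 in Siglec-F high, 220 to 353 in Siglec-F int and 103 to 156 in naive libraries. Its Siglec-F int libraries all lay above naive, at 1.13 (adjusted p = 0.0567). In the fit without Siglec-F high library 1, Ikbkb (adjusted p = 0.0114) and Chuk (adjusted p = 0.0372) were called higher in Siglec-F int. Chuk in Siglec-F high against Siglec-F int was at 0.40 (adjusted p = 0.841). Map3k14, the kinase that starts the slower branch, had 2.19, 23.9 and 17.9 in Siglec-F high, 34.9, 47.2 and 32.9 in Siglec-F int, and 5.73, 26.1 and 15.0 in naive libraries. Siglec-F int lay above both other groups, at -0.32 ± 0.85 (adjusted p = 0.791) in Siglec-F high and 1.44 ± 0.85 (adjusted p = 0.243) in Siglec-F int against naive. Ikbke, an inducible relative, had no read in Siglec-F high library 1, where a count of 0 allows up to 3.29 normalized counts, and 19.2 to 56.9 in all other libraries. Its changes were -1.46 in Siglec-F high and 0.58 in Siglec-F int. Ikbkg, the regulatory subunit, was at -0.30 in Siglec-F high and -0.35 in Siglec-F int. It overlaps G6pdx (mean 907) on the opposite strand and is uncertain.

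Among the 6 brakes Tnfaip3 and Cyld rose in both groups, Zc3h12a rose in Siglec-F high, Tnip3 rose in Siglec-F int, Tnip1 fell in Siglec-F high and Tnip2 was not called. Tnfaip3 (A20), the ubiquitin-editing enzyme that ends NF-kB signalling, had 1306, 631 and 676 normalized counts in Siglec-F high, 699, 676 and 729 in Siglec-F int, and 81.4, 104 and 67.7 in naive libraries. The lowest library from tumour-injected mice was far above the highest naive one. At 3.29 ± 0.34 (adjusted p = 0.000281) in Siglec-F high and 3.06 ± 0.34 (adjusted p = 0.000499) in Siglec-F int it had the smallest adjusted p of the 39 genes in both comparisons. Cyld, a deubiquitinase that takes activating chains off the receptor complexes, had 395, 197 and 185 in Siglec-F high, 125, 277 and 212 in Siglec-F int, and 32.1, 96.4 and 41.8 in naive libraries. All 6 lay above naive, at 2.24 ± 0.50 (adjusted p = 0.00929) in Siglec-F high and 1.92 ± 0.50 (adjusted p = 0.0217) in Siglec-F int. Without the GC and length trend neither held (0.81 and 0.74), and the Siglec-F int call also ended without naive library 1 or 3 or Siglec-F int library 2 or 3, at 1.60 to 1.85.

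The proteins of Tnip1, Tnip2 and Tnip3 bind A20. Tnip2 was at 0.37 in Siglec-F high and 0.57 in Siglec-F int, neither called. Tnip1 had 13.2, 59.7 and 70.8 normalized counts in Siglec-F high, 56.4, 110 and 67.7 in Siglec-F int, and 87.2, 245 and 163 in naive libraries. All Siglec-F high libraries lay below naive, and 1 Siglec-F int library reached into the naive range. The limma estimate was -1.95 ± 0.65 (adjusted p = 0.0418) in Siglec-F high and -1.01 ± 0.65 (adjusted p = 0.283) in Siglec-F int. That fall was not called under 14 of the 23 other settings, among them TMM scaling, edgeR, the GC and length correction (-0.73) and leaving out naive library 2 or 3, Siglec-F high library 1 or any Siglec-F int library (-1.95 to -1.21). Tnip3, which in macrophages is induced by bacterial products, had 86.7, 38.2 and 17.1 in Siglec-F high, 81.6, 155 and 68.0 in Siglec-F int, and 3.44, 46.9 and 1.67 in naive libraries. Naive libraries 1 and 3 held 3 and 2 reads, while naive library 2 lay within the Siglec-F high range. The change was 2.26 ± 1.01 (adjusted p = 0.106) in Siglec-F high and 3.54 ± 1.01 (adjusted p = 0.0297) in Siglec-F int. The Siglec-F int call ended without naive library 1 or 3 or any Siglec-F int library (2.72 to 3.78) and without the GC and length trend (2.21). Without naive library 2 Tnip3 was called in Siglec-F high (3.52, adjusted p = 0.014). Zc3h12a (Regnase-1), the nuclease that degrades inflammatory mRNAs, had 167, 256 and 304 in Siglec-F high, 136, 456 and 188 in Siglec-F int, and 114, 88.6 and 78.5 in naive libraries. All 6 lay above naive, at 1.34 ± 0.46 (adjusted p = 0.0469) in Siglec-F high and 1.29 ± 0.46 (adjusted p = 0.0667) in Siglec-F int. Zc3h12a was called in Siglec-F int under 8 other settings. Leaving out any naive library, Siglec-F high library 2 or 3 or Siglec-F int library 3 ended the Siglec-F high call, at 1.15 to 1.48.

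Of the 6 other targets, Ier3 and Bcl2a1b rose in both groups, Tnfaip2 rose in Siglec-F high, and Sod2, Bcl2a1d and Cd83 were not called. Ier3, an early response gene tied to cell survival, had 2428, 5148 and 4291 normalized counts in Siglec-F high, 4638, 4342 and 4823 in Siglec-F int, and 1368, 2123 and 1481 in naive libraries. All 6 lay above naive, Siglec-F high library 1 by least. Against naive the estimate was 1.21 ± 0.32 (adjusted p = 0.0179) in Siglec-F high and 1.498 ± 0.32 (adjusted p = 0.00885) in Siglec-F int. Without naive library 1 or 3 or Siglec-F high library 3 the Siglec-F high call ended, at 1.09 to 1.15. Tnfaip2, named for its induction by TNF, had 749, 999 and 983 in Siglec-F high, 951, 554 and 913 in Siglec-F int, and 390, 550 and 450 in naive libraries. The 6 libraries lay above naive, though Siglec-F int library 2 only just. The change was 0.98 ± 0.30 (adjusted p = 0.0314) in Siglec-F high and 0.77 ± 0.30 (adjusted p = 0.0879) in Siglec-F int. The Siglec-F high call ended without naive library 1 or 3, Siglec-F high library 2 or 3 or Siglec-F int library 3, at 0.86 to 0.98, and Tnfaip2 was called in Siglec-F int under 8 other settings. Sod2, the mitochondrial superoxide dismutase, had 682, 555 and 536 in Siglec-F high, 557, 782 and 529 in Siglec-F int, and 1024, 888 and 1052 in naive libraries. Naive lay above both groups, at -0.75 ± 0.26 (adjusted p = 0.0524) in Siglec-F high and -0.68 ± 0.26 (adjusted p = 0.0871) in Siglec-F int. Without Siglec-F high library 1 Sod2 was called lower in Siglec-F high (-0.85, adjusted p = 0.0224) and in Siglec-F int (-0.68, adjusted p = 0.0278).

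Bcl2a1b and Bcl2a1d are near-identical copies of the gene for A1, a Bcl2 family protein that blocks cell death. Their transcripts share 810 of 817 aligned bases (99.1%), and Bcl2a1a shares 98.2% with Bcl2a1b, so how reads were divided among them is uncertain. Bcl2a1b had 597, 156 and 129 normalized counts in Siglec-F high, 135, 502 and 201 in Siglec-F int, and 59.6, 54.7 and 33.4 in naive libraries. All 6 lay above naive, with library 1 in Siglec-F high and library 2 in Siglec-F int far above the others of their group. Its log2 fold change was 2.24 ± 0.63 (adjusted p = 0.0235) in Siglec-F high and 2.30 ± 0.63 (adjusted p = 0.0264) in Siglec-F int. The calls ended without naive library 2 or 3 in Siglec-F high (1.98 to 2.33), and without any naive library or Siglec-F int library 2 or 3 in Siglec-F int (1.76 to 2.46). Bcl2a1d had 114, 32.2 and 17.1 in Siglec-F high, 40.8, 112 and 41.1 in Siglec-F int, and 21.8, 13 and 3.34 in naive libraries. The same 2 libraries were highest, and the change was 1.88 ± 0.84 (adjusted p = 0.106) in Siglec-F high and 2.39 ± 0.84 (adjusted p = 0.0631) in Siglec-F int. Bcl2a1a, outside the set of 39, had 704, 254 and 310 in Siglec-F high, 348, 1139 and 410 in Siglec-F int, and 102, 102 and 70.2 in naive libraries, with the same 2 libraries high. Cd83, a surface protein of activated dendritic and B cells, had 117 to 235 in Siglec-F high, 134 to 754 in Siglec-F int and 55.1 to 172 in naive libraries. Its highest value was again Siglec-F int library 2, and it was at 0.88 and 1.62 (adjusted p = 0.292 and 0.086).

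Between Siglec-F high and Siglec-F int, none of the 39 genes was called by limma, edgeR or DESeq2. Of all 13642 genes limma and edgeR called none (0%) and DESeq2 called 6. At an unadjusted p under 0.05 limma had 3 of the 39 and 591 of all genes (4.33%). The log2 fold change was below 0 for 28 of the 39, with a median of -0.51, beside -0.08 over all genes. Siglec-F high lay wholly below Siglec-F int for 5 of them (12.8%), Nfkb2, Map3k14, Tnfrsf1b, Traf1 and Traf2, against 5.75% of all genes, and above for none, against 5.52%. Their values were -1.13 for Nfkb2 (95% interval -2.07 to -0.19), -1.76 for Map3k14 (-3.63 to 0.10), -0.71 for Tnfrsf1b (-1.47 to 0.04), -1.20 for Traf1 (-2.08 to -0.31) and -1.62 for Traf2 (-3.40 to 0.17). Their adjusted p was 0.797 in each case. Tnf was at -1.18 (-2.40 to 0.05) and Nfkbid at -1.38 (-2.57 to -0.20), both with overlapping groups. Nfkbia was at 0.02 (-0.64 to 0.69), Nfkbiz at 0.10 (-0.78 to 0.98) and Tnfaip3 at 0.23 (-0.51 to 0.97). The intervals of these 3 genes include differences of either sign. Without Siglec-F high library 1, Traf2 was at -0.57, Map3k14 at -0.84, Nfkb2 at -0.57 and Tnf at -0.56. In that fit 33 of the 39 were below 0 with a median of -0.46, beside 0 over all genes. Without Siglec-F int library 2, 27 were below 0 with a median of -0.37, beside -0.09 over all genes. With the GC and length trend removed 27 were below 0 with a median of -0.28, beside -0.03 over all genes.

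**Figure D3:**
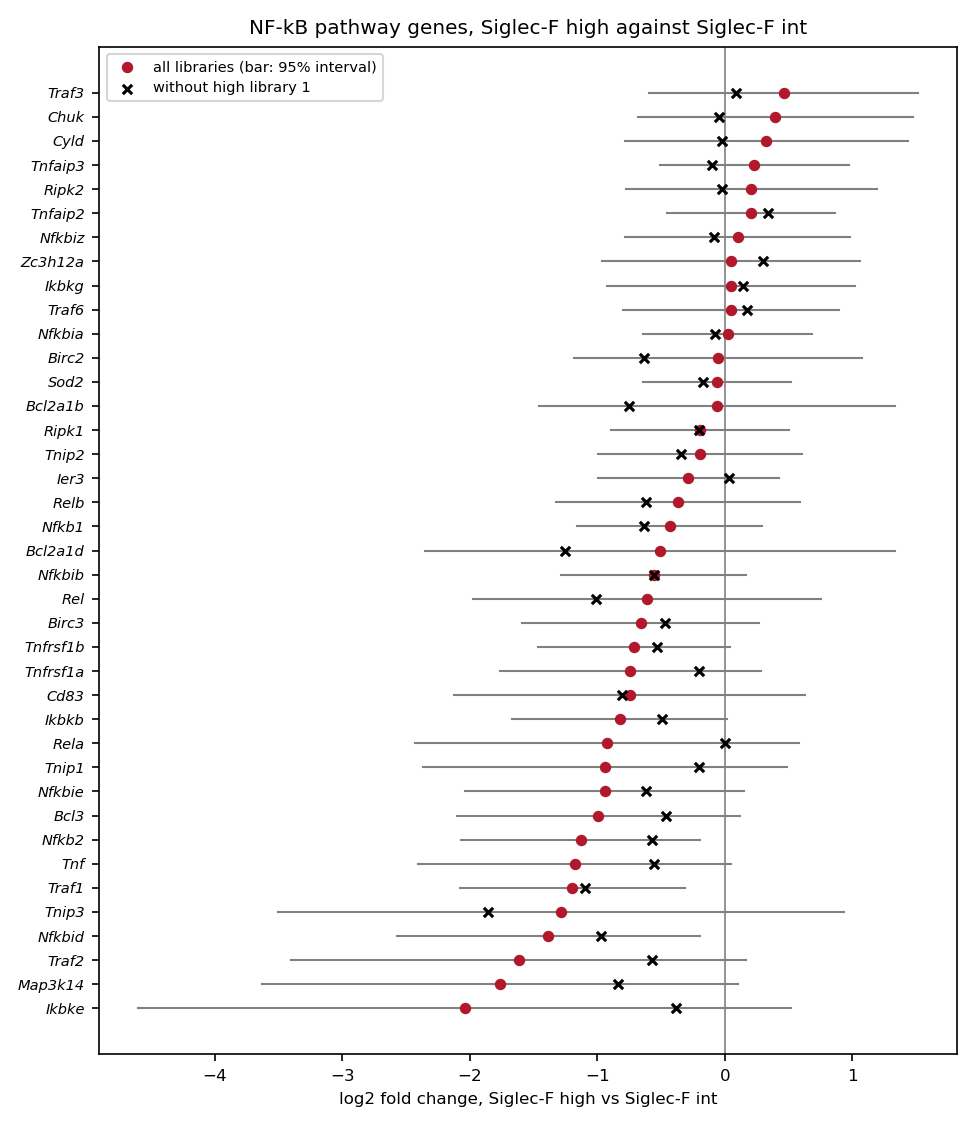
Log2 fold change of Siglec-F high over Siglec-F int for each of the 39 genes, ordered by size. Red points are the fit of all 9 libraries with 95% intervals and crosses the fit without Siglec-F high library 1. Of the 39 points 28 lie below 0, none passed the adjusted threshold, and for Traf2, Map3k14 and Ikbke the cross lies well to the right of the point.

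Libraries stood apart for these genes. Siglec-F int library 2 had the highest value of its group in 31 of the 39 genes (79.5%), against 40.3% of all genes, and its monocyte and macrophage marker sum was 75020, beside 18566 and 21823 in the other Siglec-F int libraries. Without it 8 of the 39 rose in Siglec-F int and the median was 0.98, beside 1112 higher and 1021 lower of all genes, where the fit of all libraries had 1634 and 1402. In Siglec-F high, the libraries differed along transcript GC content. Over the 39 genes the log2 deviation of library 1 from the other libraries of its group had a Spearman correlation with GC of -0.67. For library 2 it was 0.71 and for library 3 it was 0.36. The deviations of a gene cancel out over its group, so slopes of opposite sign are built in and do not show which library moved. These points share their libraries and are descriptions only. Over all genes the values were -0.50, 0.54 and 0.24. The 20 genes at or above the median GC of 51.8% had a median fold change of 0.35 in Siglec-F high, and the 19 below it 1.17. With the GC and length trend removed those medians were 1.17 and 0.43. With that correction, chosen after the data were seen, 13 were higher and 3 lower in Siglec-F high and 17 higher and 2 lower in Siglec-F int. Of the calls made without it, 10 of 15 in Siglec-F high and 9 of 13 in Siglec-F int were among them. Over all genes it called 24% in Siglec-F high (9.78% higher and 14.2% lower) and 20.6% in Siglec-F int (9.1% higher and 11.5% lower). Without Siglec-F high library 1, 11 were higher and 2 lower in Siglec-F high, beside 29.7% of all genes (13.3% higher and 16.4% lower), and 21 were higher and 1 lower in Siglec-F int, beside 37.9% (17.6% higher and 20.2% lower).

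**Figure D4:**
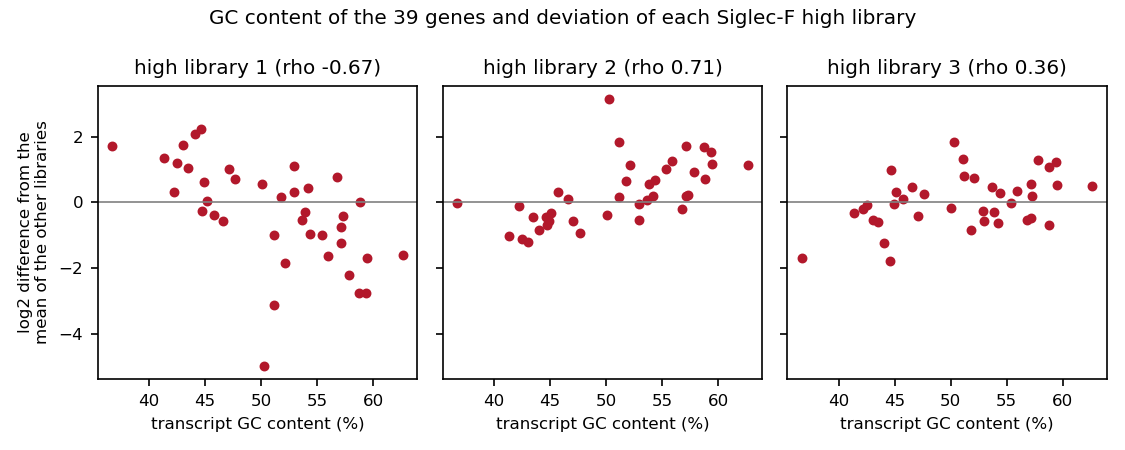
Transcript GC content of each of the 39 genes against its log2 deviation from the mean of the other Siglec-F high libraries, 1 panel per Siglec-F high library, each point a gene. Library 1 slopes down (Spearman -0.67), library 2 up (0.71) and library 3 weakly up (0.36). The deviations of a gene cancel out over the panels, so the slopes are not independent.

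Genes of the same pathway outside the 39 were counted in 2 further lists. Over all genes tested, 14.7% rose and 16.6% fell in Siglec-F high, and 12% rose and 10.3% fell in Siglec-F int. Of 44 other signalling genes 40 were tested, and 14 rose and 4 fell in Siglec-F high and 13 rose and 1 fell in Siglec-F int, with medians of 0.32 and 0.59. Those with the smallest adjusted p that rose were the kinase-complex adaptor Tab2 (1.77 and 1.57), the adaptor Traf5 (1.98 and 1.98) and the kinase Tbk1 (1.84 and 1.69), each called in both groups, with Tax1bp1, an A20 partner, next in Siglec-F high (1.43) and the kinase-like brake Irak3 in Siglec-F int (4.08). The lymphotoxin receptor Ltbr, an entry point of the slower branch, fell in both (-1.63 and -1.25). Rbck1, part of the linear ubiquitin ligase, and the death-domain adaptors Fadd and Tradd fell in Siglec-F high (-3.08, -2.92 and -1.39). Of 35 other targets 33 were tested, and 18 rose and 1 fell in Siglec-F high and 17 rose and 1 fell in Siglec-F int, with medians of 1.90 and 1.88. The chemokine Ccl2 averaged 35898 ± 12228 normalized counts in Siglec-F high, 25284 ± 5765 in Siglec-F int and 1639 ± 578 in naive (SD, n = 3 each), log2 fold changes of 4.46 and 3.98. The cytokine gene Lif (3.68 and 3.41), the adhesion molecule Vcam1 (3.95 and 3.29) and the chemokine Ccl7 (2.49 and 2.78) rose in both groups. The acute phase protein Saa3 fell in both, at -1.68 and -1.52.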

How the data were processed

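The authors deposited normalized counts (a signal per gene), which per the submitters' processing notes came from TopHat2 2.1.0 alignments to GRCm38, HTSeq counting and DESeq2 1.10.0 normalization. Dividing each column by its smallest step recovered whole reads for 100% of values up to 2000 reads, within 0.05 read. Molecular identifiers and strand settings are not given in the sources used here, so limits from counts cover counting error only. Of 54670 entries, 63 whose names had turned into dates (0.219% of the signal) and exact repeats were left out. Genes with a mean of at least 5 were tested on log2(value + 1) with limma 3.58.1 (R 4.3.3) in 1 fit of all 9 libraries, and p-values were adjusted over 13642 genes. Alternatives were other pseudocounts, filters, scalings, libraries left out, a replicate block, and edgeR 4.0.16 and DESeq2 1.42.0 on recovered reads. Removing a loess trend on transcript GC content and length (span 0.3, GENCODE M21 annotation) was added after the data were seen. Scripts were tested on simulated data. The 39 genes and all other lists were chosen with earlier results of these data known. Full values are given for genes called in at least 1 comparison, the subunits, Nfkbia, Tnf and the Bcl2a1 genes, and up to 4 genes per direction from each other list. Promoters came from RefSeq GRCm38.p6. No 2 libraries of the same group agreed within sampling noise.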

Additional observations from a re-analysis of the deposited data

How the results depend on the processing

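Among the 39 genes the number called in Siglec-F high against naive was 15. It was 9 with no filter on low values (3089 over all genes) or in a fit of only those 2 groups. Leaving out 1 library gave 6 to 15. In Siglec-F int it was 13, with 20 under equal totals without mitochondrial genes (3021 over all genes) and 21 with DESeq2 (4018 over all genes). With 1 library left out it was 6 to 22. Between Siglec-F high and Siglec-F int it was 0 under each alternative run. Over all genes, the fit of 2 groups gave 2509 for Siglec-F high (4266 in the fit of all libraries) and 4808 for Siglec-F int (3036), and leaving out 1 library gave 2770 to 5101 and 1401 to 5167. With library 1 of Siglec-F high and library 2 of Siglec-F int both left out it was 4188 and 4623. Fits without a library have fewer samples and the fit with no filter tests more genes. The cause of the change in number was not tested for any setting.

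Equal totals moved the median of all genes to 0.02 in Siglec-F high (-0.11 as deposited) and to 0.23 in Siglec-F int (-0.02). Nfkb2 in Siglec-F int was then at 0.23, at 0.21 without mitochondrial genes, 0.15 with TMM, 0.25 with quantile normalization, 0.17 with edgeR and 0.057 with DESeq2, against -0.03, and -0.073 to 0.047 with 1 library left out. Removing the GC and length trend put it at 0.47 and, in Siglec-F high, Nfkb2 at 0.038, Rela at 0.52 and Relb at 0.84. Rela in Siglec-F high was -1.36 to 0.074 with 1 library left out and 0.074 without both named libraries, and Tnf there was -0.040 to 0.96. In Siglec-F int Rela was -0.13 to 0.19 and Relb -0.025 to 0.36. Between Siglec-F high and Siglec-F int, Nfkbia was at -0.11, -0.0049, -0.00034 and -0.0053 under equal totals, the same without mitochondrial genes, TMM and edgeR, and Nfkbiz at -0.029 under equal totals. Without both named libraries these were -0.016 and -0.033 and Tnfaip3 -0.13. With 1 library left out Nfkbia was -0.079 to 0.11, Nfkbiz -0.085 to 0.23 and Tnfaip3 -0.10 to 0.42. None of these values was called in the fit of all libraries.

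Whether libraries of the same replicate number share mice is not given in the sources used here. Deviations of same-numbered libraries correlated at 0.123, 0.141 and 0.0718 between Siglec-F high and Siglec-F int, and at -0.0293 to 0.0616 with naive. Differently numbered Siglec-F high and Siglec-F int libraries were at -0.157 to -0.0105. The deviations within a group cancel out, so these correlations depend on each other. With the replicate block 14 of the 39 were called in Siglec-F high (11 higher and 3 lower) and 19 in Siglec-F int (all higher), with 4317 and 3091 over all genes. In Siglec-F high 13 of the 15 calls were shared, Rel (adjusted p = 0.0638) and Chuk (0.0518) were no longer called, and Nfkb2 was called lower (-1.16, 0.0486). In Siglec-F int all 13 were shared, and Tnf (0.018) and Bcl2a1d (0.0399) were among those added. Each Siglec-F high library correlated best with the Siglec-F int library of its own number, a hint from the data and not the design. Traf2, Map3k14 and Ikbke held 1, 2 and 0 reads in Siglec-F high library 1 and 18, 21 and 26 in library 3, of similar depth (4941900 and 5148291 reads).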
